A study of Mus musculus with 2 samples.

Results

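The Wnt ligands described here are the products of 10 genes, Wnt2, Wnt4, Wnt5a, Wnt5b, Wnt6, Wnt7a, Wnt7b, Wnt9a, Wnt10a and Wnt11, taken by gene symbol from a count table of 49492 genes. They were 10 of the 19 Wnt ligand genes in that table, and 9 of them held the 20 counts, summed over both libraries, that were required for a test against the 2-fold threshold. Wnt2 did not. RNA came from basal cells of the mammary gland, sorted as CD24+ CD29hi cells after removal of blood, endothelial and red cells by CD45, CD31 and TER119. One library, Ctrl basal, came from control wild-type mice, and the other, CL basal, from wild-type mice given clodronate liposomes, which macrophages engulf and die from. Clodronate was injected into the peritoneum every other day, 3 times in all, and both libraries are labelled day 7. The mice were adult females of 8 to 10 weeks. The sample label gives the control treatment as none, whereas the series text describes saline, and pooling of animals is not stated. The study names C57/B6 mice in other experiments of the same kind, but no strain for the mice of these libraries. Each condition had 1 library, and no difference given here could be checked on a replicate. Intervals cover counting error at the 95% level only, and they compare the 2 libraries rather than the 2 conditions.

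Wnt ligands are secreted, lipid-modified glycoproteins that act over short distances on Frizzled receptors. With the co-receptors Lrp5 and Lrp6, some of them stabilise β-catenin and switch on Tcf and Lef target genes, while others act through Ror and Ryk receptors on cell shape and movement. In the mammary gland, Wnt signals sustain basal stem cells, and Wnt4 is known as a progesterone-induced ligand of hormone-sensing luminal cells.

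The libraries held 37846008 counts in Ctrl basal and 38962512 in CL basal. Markers of basal cells were abundant in both: Krt14, a basal keratin, had 210758 and 232845 counts, and the summed level of all 15 basal markers was 21761 CPM, counts relative to a library's scaled total, in Ctrl basal and 22743 in CL basal. Markers of other cells were also present, and several were lower in CL basal. The 18 luminal markers summed to 5869 CPM in Ctrl basal and 3548 in CL basal, with 7 of 18 at least 2-fold lower, where 4.79% of all genes tested were. Gata3, a luminal transcription factor named after its values were seen, lay the other way, with 952 counts in Ctrl basal and 1443 in CL basal. Fibroblast markers summed to 1403 and 1279 CPM, of which Postn alone made 997 and 950. Their median log2 fold change was -0.48, the interval lay below 0 for 10 of 11, where it did so for 25.4% of all genes tested, and 1 fell at least 2-fold, Lum, with 128 and 34 counts. Endothelial markers summed to 469 and 379 CPM, and adipocyte markers to 131 and 96.8, of which Fabp4 alone made 121 and 90.1. The interval lay below 0 for 6 of the 9 endothelial markers and above 0 for 1, and below 0 for all 4 adipocyte markers tested. Macrophage markers summed to 33.4 CPM in Ctrl basal and 30.8 in CL basal, and of the 1280 and 1184 counts behind these sums, Ptprc, a gene of all white blood cells, held 537 and 521. Of the 9 macrophage markers tested, 1 was at least 2-fold higher (Mpeg1, 28 and 88 counts), where 2.07% of all genes were, and 1 at least 2-fold lower (C1qc, 16 and 6 counts), with an interval that spanned 0. The interval lay below 0 for 2 others, Mrc1 with 168 and 86 counts and Cd68 with 233 and 185. Lum, Mpeg1, C1qc and Mrc1 were named after their values were seen. In bulk RNA such as this, fewer cells of a type and less RNA per cell cannot be told apart.

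Promoter stretches are shown for Wnt4, the tested member with the largest difference, and for Wnt5b and Wnt11, the 2 most abundant members. They come from RefSeq promoters on GRCm38.p6, which were given for 7 of the 10 members (not Wnt5a, Wnt7b or Wnt10a) as 10 windows of 250 bases before and 50 after a transcript start. Each stretch is 100 bases long, runs 5′ to 3′ on the gene's strand and lies outside the exons of the count table. Capitals mark a match to CTTTGA, the core read by Tcf and Lef factors, on either strand, or to TATAAA, the TATA box.
Wnt4, chr4:137277389-137277488, plus strand: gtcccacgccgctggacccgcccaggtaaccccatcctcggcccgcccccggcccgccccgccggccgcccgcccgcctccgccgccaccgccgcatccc
Wnt5b, first start, chr6:119544348-119544447, minus strand: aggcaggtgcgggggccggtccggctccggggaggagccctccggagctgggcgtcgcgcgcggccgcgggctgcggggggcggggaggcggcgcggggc
Wnt5b, most internal start, chr6:119449387-119449486, minus strand: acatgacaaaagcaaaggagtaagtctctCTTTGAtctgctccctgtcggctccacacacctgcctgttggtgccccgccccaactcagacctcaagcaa
Wnt11, first start, chr7:98835012-98835111, plus strand: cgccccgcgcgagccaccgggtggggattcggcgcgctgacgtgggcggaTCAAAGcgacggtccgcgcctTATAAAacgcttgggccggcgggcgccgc

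The Wnt5b and Wnt11 stretches end at the base before the transcript start, and the Wnt4 stretch ends 146 bases before it. In the stretch before the first Wnt11 start the Tcf core lay at -50 and the TATA box at -29 from the start, and in the internal Wnt5b stretch the Tcf core lay at -71. Among all 32851 mouse promoter windows of this length, 16% held the Tcf core and 13.6% the TATA box. The core of a pair of progesterone receptor sites, ACANNNTGT, was in 6.85% of windows and, among the members, once, at -117 from another internal Wnt5b start. None of the 3 motifs was in the windows of Wnt4, of the first Wnt5b start or of a second, internal Wnt11 start at chr7:98838845, which says only that these letters are not there. Most member windows were rich in G and C, with a median of 73.7% over the 10 windows of 7 genes against 52.7% over all windows. The internal Wnt5b windows, at 53% and 55%, were not. These matches are descriptions of sequence and not binding sites.

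Wnt5b and Wnt11 made up most of the ligand RNA in both libraries, and their order at the top differed between the libraries. Both are known mainly as ligands of the branches that do not use β-catenin. To compare genes, counts were scaled and divided by the length of each gene's merged exons, giving CPM per kilobase. Wnt5b (chr6:119432531-119544347, minus strand, 2654 exonic bases) had 3189 counts in Ctrl basal and 2223 in CL basal. Its level was 31.3 CPM per kilobase (30.3 to 32.4) in the control library and 21.8 (20.9 to 22.7) after clodronate, a log2 fold change of -0.52 (-0.60 to -0.45). Wnt11 (chr7:98835112-98855195, plus strand, 4137 exonic bases), which is also known for its part in branching of the kidney, ran the other way. It had 2543 counts in Ctrl basal and 3632 in CL basal. Its level was 16.0 CPM per kilobase (15.4 to 16.7) in the control library and 22.8 (22.1 to 23.6) after clodronate, a log2 fold change of 0.51 (0.44 to 0.58). Neither difference reached 2-fold.

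The ratio of Wnt11 to Wnt5b, which does not depend on how the libraries are scaled, was 0.512 in Ctrl basal and 1.05 in CL basal on the per-length scale. It was thus 2.05 times as high in CL basal (1.90 to 2.21). As counts, Wnt5b took 41.2% of all counts on the 10 members in the control library (exact binomial interval 40.1 to 42.3%) and 29.8% after clodronate (28.7 to 30.8%). Wnt11 took 32.9% in the control library (31.8 to 33.9%) and 48.7% after clodronate (47.5 to 49.8%). As shares of the summed per-length level, Wnt5b made 52.4% in Ctrl basal and 39.4% in CL basal, and Wnt11 made 26.8% and 41.3%. The members' summed level moved little by comparison, at 59.8 CPM per kilobase in the control library and 55.3 after clodronate. On the log2 scale that is a difference of -0.11.

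**Figure D1:**
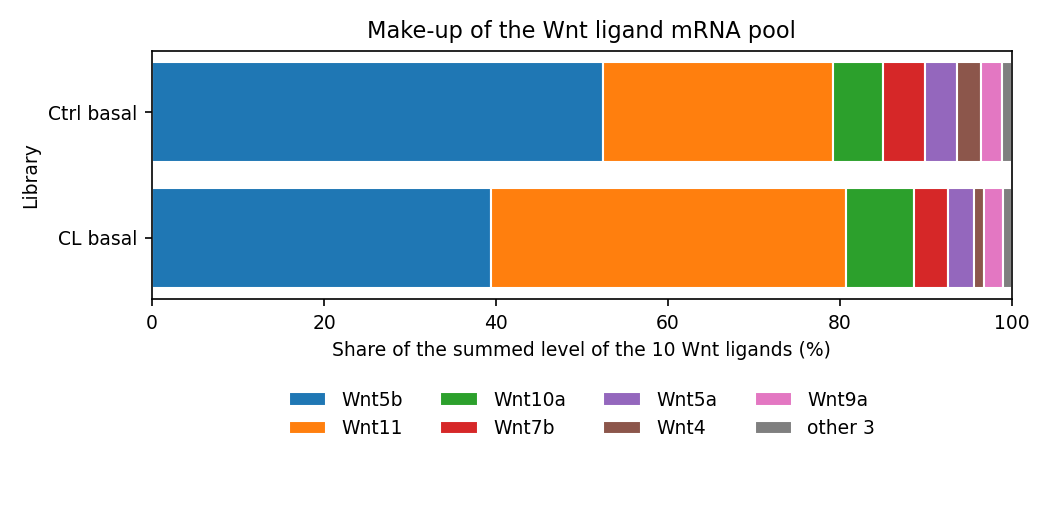
Share of the summed Wnt ligand level (percent, after division by exonic length) taken by each member, as 1 stacked bar for Ctrl basal and 1 for CL basal. Wnt5b fills 52.4% of the Ctrl basal bar and 39.4% of the CL basal bar, and Wnt11 fills 26.8% and 41.3%.

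Below these 2, no member reached 5 CPM per kilobase in either library, and the order was largely shared. In Ctrl basal the order was Wnt5b, Wnt11, Wnt10a, Wnt7b, Wnt5a, Wnt4, Wnt9a, Wnt6, Wnt2 and Wnt7a. The counting intervals of the neighbours Wnt10a and Wnt7b overlapped, as did those of Wnt4 and Wnt9a and those of Wnt2 and Wnt7a. In CL basal the order was Wnt11, Wnt5b, Wnt10a, Wnt7b, Wnt5a, Wnt9a, Wnt4, Wnt6, Wnt7a and Wnt2, and the neighbours whose intervals overlapped were Wnt11 and Wnt5b, and Wnt6 and Wnt7a. The length used for each gene bears on this order. With the longest protein-coding transcript in place of merged exons, Wnt7b (3.76) stood above Wnt10a (3.50 CPM per kilobase) in Ctrl basal, while Wnt5b stayed first in Ctrl basal and Wnt11 first in CL basal.

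**Figure D2:**
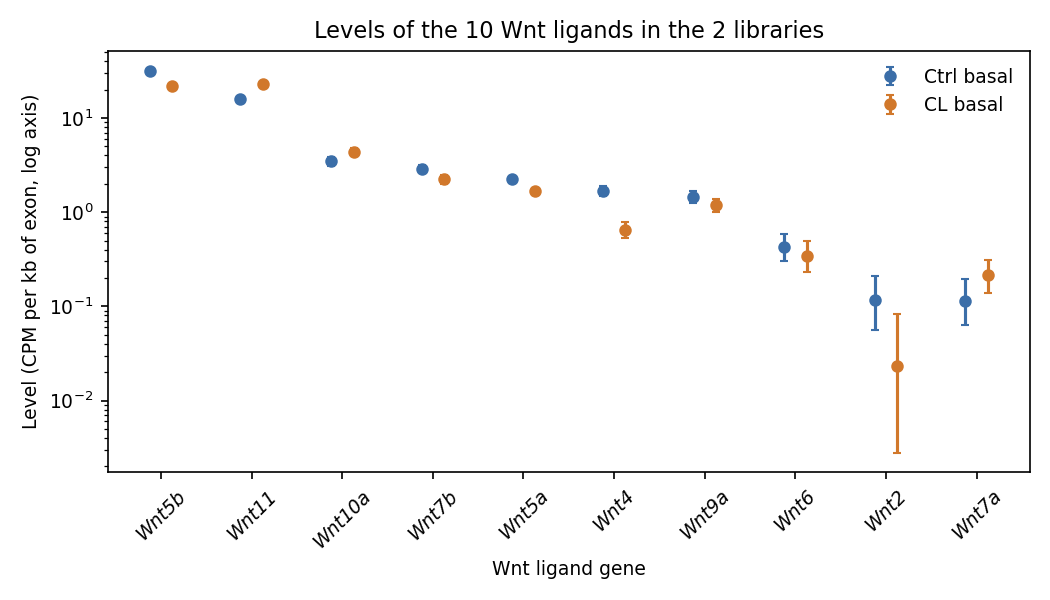
Level of each Wnt ligand (CPM per kilobase of exon, log axis) in Ctrl basal and CL basal, 1 library each, with exact Poisson intervals at the 95% level. Wnt5b and Wnt11 lie above 15 CPM per kilobase in both libraries, and the other members lie below 5.

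Wnt4 was the only one of the 9 tested members that passed the 2-fold threshold. Wnt4 (chr4:137277489-137299726, plus strand, 4194 exonic bases) had 269 counts in Ctrl basal and 105 in CL basal. Its level fell from 1.67 CPM per kilobase (1.48 to 1.88) in the control library to 0.651 (0.533 to 0.788) after clodronate, a log2 fold change of -1.34 (-1.70 to -1.03). Its share of the summed ligand level was 2.80% and 1.18%. So 1 of the 9 members tested fell at least 2-fold, where 4.79% of all 17356 genes tested did, and where 3.26% of genes with 100 or more but fewer than 1000 counts, the range Wnt4 lies in, did. No member was at least 2-fold higher, against 2.07% of all genes tested. With 9 members tested, a single gene decides such a share.

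Of 9 markers of the hormone-sensing luminal cells that Wnt4 is known from, 2 fell at least 2-fold, Areg and Prom1, the latter chosen after its values were seen. All 9 had negative log2 fold changes, with a median of -0.86, and the interval lay below 0 for 7 and spanned 0 for the other two. Over all genes tested, 4.79% were at least 2-fold lower and 25.4% had an interval below 0. Esr1, Pgr, Prlr, Foxa1, Areg, Cited1 and Prom1 are also among the 18 luminal markers. Those 18 had a median of -0.87, so lower values were not particular to the hormone-sensing list. The summed level of the 9 hormone-sensing markers was 274 CPM in Ctrl basal and 123 in CL basal, of which Areg alone made 199.9 and 80.5. Areg, an estrogen-induced growth factor of these cells, had 7665 and 3094 counts, the prolactin receptor gene Prlr had 812 and 447, and Foxa1, a partner of the estrogen receptor, had 499 and 271. Krt8 and Krt18, the keratins of luminal cells in general, had 86539 and 49639 counts in Ctrl basal and 53150 and 27492 in CL basal. The part of luminal RNA in the difference of Wnt4 was not tested. The ratio of Wnt10a to Wnt4 was 2.09 in Ctrl basal and 6.70 in CL basal on the per-length scale, 3.20 times as high in CL basal (2.43 to 4.23). That of Wnt11 to Wnt4 was 9.58 and 35.1, 3.66 times as high (2.89 to 4.66).

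**Figure D3:**
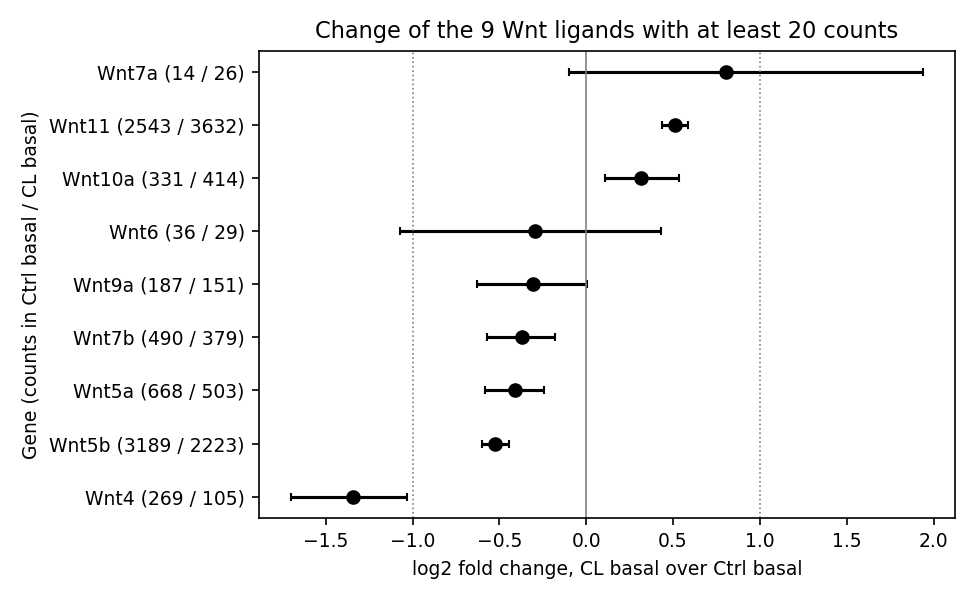
Log2 fold change (CL basal over Ctrl basal, TMM scaled) of the 9 tested Wnt ligands, with exact binomial intervals at the 95% level and each gene's counts beside its name. The dotted lines mark a 2-fold difference, and Wnt4 at -1.34 is the only member beyond them.

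Wnt5a, the closest relative of Wnt5b and a ligand of Ror2, lay on the same side as Wnt5b. Wnt5a (chr14:28504750-28527447, plus strand, 7822 exonic bases) had 668 counts in Ctrl basal and 503 in CL basal. Its level was 2.23 CPM per kilobase in Ctrl basal and 1.67 in CL basal, a log2 fold change of -0.41 (-0.58 to -0.24). Wnt5b exceeded Wnt5a 14.1-fold in Ctrl basal and 13.0-fold in CL basal per length. The ratio of these ratios was 0.926 (0.813 to 1.05), so a difference in the balance of the 2 relatives was not detectable at this depth. Of the Wnt5a exons, 358 bases overlap Gm2670 on the opposite strand, which had 2 counts in Ctrl basal and 14 in CL basal. Likewise 364 bases of Wnt11 overlap Gm8398 (11 and 16 counts) and 38 bases of Wnt7b overlap AU022754 (43 and 23 counts). Whether counting used strand is not given in the sources used here, so reads from such overlaps cannot be told apart.

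Wnt7b and Wnt7a, close relatives that can act through Reck and Gpr124 on blood vessels of the brain, lay far apart in level. Wnt7b (chr15:85535439-85581821, minus strand, 4413 exonic bases) had 490 counts in Ctrl basal and 379 in CL basal. Its level was 2.90 CPM per kilobase in Ctrl basal and 2.23 in CL basal, a log2 fold change of -0.37 (-0.57 to -0.18). Wnt7a (chr6:91363981-91411363, minus strand, 3172 exonic bases), best known from the limb and the female reproductive tract, had 14 counts in Ctrl basal and 26 in CL basal. Its log2 fold change was 0.80 with an interval that spanned 0 (-0.10 to 1.94). Per length, Wnt7b exceeded Wnt7a 25.2-fold in Ctrl basal and 10.5-fold in CL basal. The ratio of these was 0.417 (0.198 to 0.841), but the interval reached 1.15 when all counts were halved to allow for mates counted separately.

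Wnt10a and Wnt6 are neighbours on chromosome 1, on the same strand and 6193 bases apart. Wnt10a (chr1:74791516-74804179, plus strand, 2468 exonic bases), a ligand known from teeth, hair and sweat glands, had 331 counts in Ctrl basal and 414 in CL basal. Its level was 3.50 CPM per kilobase in Ctrl basal and 4.36 in CL basal, a log2 fold change of 0.32 (0.11 to 0.53). Wnt6 (chr1:74771892-74785322, plus strand, 2192 exonic bases) had 36 and 29 counts, and its log2 fold change of -0.30 had an interval that spanned 0 (-1.07 to 0.43). The per-length ratio of Wnt10a to Wnt6 was 8.17 in Ctrl basal and 12.7 in CL basal, a ratio of 1.55 (0.904 to 2.68). At these counts, a difference between the neighbours was not detectable.

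Wnt9a (chr11:59306928-59333552, plus strand, 3329 exonic bases), known from the forming joints, had 187 counts in Ctrl basal and 151 in CL basal. Its level was 1.46 CPM per kilobase in Ctrl basal and 1.18 in CL basal, and its log2 fold change of -0.31 had an interval from -0.63 to 0.00 whose upper end lay just above 0. Wnt2 (chr6:17988940-18030585, minus strand, 2255 exonic bases), known from the forming lung, had 10 counts in Ctrl basal and 2 in CL basal. The latter lies under the 3 counts that a count of 0 would still allow. The ratio of CL basal to Ctrl basal was 0.199 (0.0213 to 0.936), and Wnt2 was left out of the counts of calls because it held fewer than 20 counts.

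Taken by sign, 6 of the 9 tested members had negative and 3 had positive log2 fold changes, with a median of -0.31 against -0.01 over all genes tested. The counting interval lay below 0 for 4 members (Wnt4, Wnt5a, Wnt5b and Wnt7b), where it did so for 25.4% of all genes tested. It lay above 0 for 2 members (Wnt10a and Wnt11), where it did so for 25.2% of all genes. It spanned 0 for Wnt6, Wnt7a and Wnt9a.

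Of the other 9 Wnt ligand genes, 2 passed the filter on low counts, Wnt2b and Wnt10b. Wnt3, Wnt3a, Wnt8a and Wnt8b had no counts in either library, which allows up to 3 counts as a one-sided limit, or 0.0782 CPM in Ctrl basal and 0.0780 in CL basal. Together the 9 genes held 43 counts in Ctrl basal, where the 10 members held 7737, and 55 in CL basal, where the members held 7464. Wnt2b, the closest relative of Wnt2, had 35 counts in Ctrl basal and 19 in CL basal, and its log2 fold change was -0.82 (-1.77 to -0.04). Wnt10b, the closest relative of Wnt10a and chosen here after its values were seen, had 2 counts in Ctrl basal, under the floor of 3, and 24 in CL basal. It reached 20 counts only through CL basal, where it was higher. Its log2 fold change with the prior count was 2.70, a value that depends on the prior count, and the counting interval of the plain ratio on the log2 scale ran from 1.57 to 6.71.

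Genes that make and release Wnt proteins had a median log2 fold change of 0.03. Porcn, which attaches the lipid to the ligands, had 48 counts in Ctrl basal and 38 in CL basal, a log2 fold change of -0.33 (-0.99 to 0.30). Wls, which carries the ligands to the cell surface, had 1345 counts in Ctrl basal and 1185 in CL basal, and its log2 fold change was -0.19 (-0.30 to -0.07). Of the 10 genes in this list, 1 passed the 2-fold threshold, where 2.07% of all genes tested were at least 2-fold higher and 4.79% lower. That gene was Notum, an enzyme that removes the lipid again and does not itself make or release the ligands. Notum had 7 and 21 counts and a log2 interval from 0.29 to 3.06. It reached 20 counts only through CL basal, where it was higher, and it too was chosen after its values were seen.

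On the receiving side, none of the 16 receptor and co-receptor genes passed the 2-fold threshold. Over all genes tested, 4.79% were at least 2-fold lower and 2.07% higher, and at those shares a list this short would hold few calls. Log2 fold changes of the receptor genes ran from -0.89 to 0.56 with a median of 0.15. None of the 7 tested genes for R-spondins, their Lgr receptors and the ligases Znrf3 and Rnf43 passed the threshold either (median 0.28). Intervals lay above 0 for 9 of the 16 receptor genes and 5 of these 7, against 25.2% of all genes tested. They lay below 0 for 3 and 1, against 25.4%. Lgr5, an R-spondin receptor, had 786 counts in Ctrl basal and 871 in CL basal. The 10 tested antagonists had a median of 0.12, with intervals above 0 for 4, against 25.2% of all genes tested, and below 0 for 1, against 25.4%. That gene, Dkk2, which blocks Lrp5 and Lrp6, fell from 115 counts to 34, a log2 fold change of -1.70 (-2.36 to -1.20). Kremen2, a receptor for Dkk proteins that was chosen after its values were seen, had 14 and 42 counts. It was at least 2-fold higher (interval 0.68 to 2.57 on the log2 scale), where 2.07% of all genes tested were. Ctrl basal alone held fewer than the 20 counts required for a test of Kremen2, and CL basal, where it was higher, held more.

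Within the cell, all 18 cytoplasmic and nuclear components stayed under 2-fold, between -0.24 and 0.33 with a median of 0.03. Over all genes tested, 4.79% were at least 2-fold lower and 2.07% higher, so few calls would be due in a list of 18. Ctnnb1, the gene of β-catenin, had 11922 counts in Ctrl basal and 12551 in CL basal. Among 14 tested target genes of the β-catenin branch, 1 was at least 2-fold higher, where 2.07% of all genes tested were. It was Notum again, which reached 20 counts only through CL basal. The median was 0.20, with intervals above 0 for 8, against 25.2% of all genes tested, and below 0 for 1, against 25.4%. Notum, Lgr5, Znrf3, Rnf43, Lef1 and Tcf7 also stand in other Wnt lists, so these lists are not separate. Axin2, a feedback inhibitor widely read as a target, had 765 counts in Ctrl basal and 931 in CL basal, a log2 fold change of 0.28 (0.14 to 0.42).

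**Figure D4:**
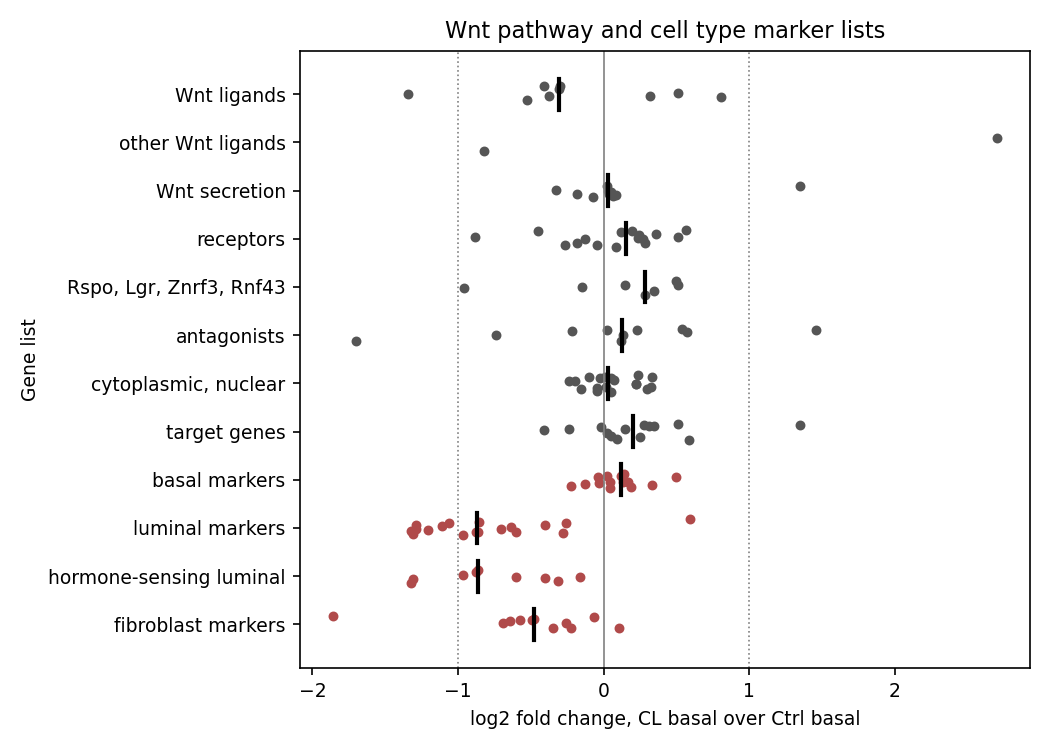
Log2 fold change (CL basal over Ctrl basal) of each tested gene in the Wnt lists and in the cell type marker lists, with 1 point a gene (grey for Wnt lists, red for marker lists), a black bar at the median of lists of 3 or more and dotted lines at a 2-fold difference. The members' median is -0.31, the receptors' 0.15 and the targets' 0.20, while the luminal markers' median is -0.87.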

How the data were processed

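Counts of RNA-seq reads per gene were deposited by the authors as 1 table of 2 columns, with gene positions and exonic lengths. Libraries were made with a SMARTER kit. The submitters' processing notes name GRCm38 and mm10, and the aligner, the counter and strand use are not given in the sources used here. Of genes with 1 to 20 counts, 67.9% (control) and 68.7% (clodronate) had an even count, whereas above 1000 counts 49.7% and 49.9% did, so mates may have been counted separately and intervals may be too narrow. The authors' own log2 fold change and ratio columns were not used.

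The members and lists were chosen with earlier results of these data known. Counts were scaled by TMM (edgeR 4.0.16 in R 4.3.3), with factors of 1.01 and 0.987. Log2 fold changes used a prior count of 2 and genes with at least 20 counts. A call was a 2-fold difference. Levels are CPM divided by exonic length, with exact Poisson intervals, and differences have exact binomial intervals (scipy 1.17.1). Scripts were tested on simulated data. Named were all members, pathway genes past 2-fold with at least 100 counts, Porcn, Wls, Axin2, Ctnnb1, Lgr5, the tested non-member ligand with the most counts and up to 3 markers a list by counts, and others are said to be chosen after their values were seen. Alternatives covered scaling (total counts, DESeq2 1.42.0 size factors, upper quartile), prior count, filter, fold, length correction, a trend on abundance and halved counts. Transcript length, and halved counts for the intervals, were added after seeing the data.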

Additional observations from a re-analysis of the deposited data

How the results depend on the processing

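No paired analysis was possible because there was a single library on each side, and no replicate could be left out. All 79 values of the 9 tested members under the alternatives kept their sign and lay within the interval given in the report. Values under a changed filter equal the main values by construction, since a filter does not alter a gene's own value. Wnt4 ran from -1.38 to -1.26, Wnt5b from -0.58 to -0.51 and Wnt11 from 0.45 to 0.52 on the log2 scale. Without a filter on low counts, 2 members fell at least 2-fold, Wnt4 and Wnt2. At a 1.5-fold threshold, 1 member, Wnt7a, was called higher, with an interval that spanned 0. Wnt7a, with 14 counts in Ctrl basal and 26 in CL basal, reached the minimum for a test only through CL basal, where it was higher. Shares of all genes called at 1.5-fold, or without the filter, are not given here. The calls under those settings therefore cannot be set against all genes. The log2 difference of the summed ligand level was -0.11, and -0.056 without the length correction. Scaling by total counts put the interval of Wnt9a below 0, making 5 members, and removal of the trend on abundance put that of Wnt7a above 0, making 3. At least 100 counts left 7 members tested. Across scalings the median of all genes lay between -0.04 and 0.00. Depth limits Wnt2, Wnt6, Wnt7a and the other ligands near the floor most.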

Other observations

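Of the 19 Wnt ligand genes, 8 stand in 4 neighbouring pairs in the genome, and the pairs differed in how evenly their genes were detected. Besides Wnt6 and Wnt10a, these are Wnt3a and Wnt9a on chromosome 11, 16175 bases apart, of which Wnt9a had 187 and 151 counts in Ctrl basal and CL basal and Wnt3a had none. Wnt9b and Wnt3, 24328 bases apart on the same chromosome, had 2 and 8 counts and no counts. Wnt10b and Wnt1, 11706 bases apart on chromosome 15, had 2 and 24 counts and 0 and 2 counts.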
